A study of Mus musculus with 12 samples.

Results

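Mouse embryonic stem cells with an inducible RAF kinase were compared after 4 h and after 1 h of 4-hydroxytamoxifen (4OHT), so both groups had received the ligand and differed in how long. The comparison took 6 of the 12 libraries of the series, 3 of each time, chosen by their labelled hours of 4OHT and joined by clone letter. All were E14tg2a cells of the 129SV background carrying a cRAF-ERT2 construct, in which the kinase is fused to a ligand-binding domain that 4OHT releases. Group 4OHT_4h was clones a, b and c after 4 h of 250 nM 4OHT, and group 4OHT_1h was the same clones after 1 h. Clones a, b and c untreated, and after 2 h, supplied the remaining 6 libraries and are used here for context. All groups grew in serum, LIF and the GSK3 inhibitor Chir99021 at 2 µM. At 24 h before treatment LIF was kept and 250 nM PD173074, which blocks FGF receptors, replaced Chir99021 in the serum medium, so the untreated cells carried that inhibitor too. All received 5 mM ethynyl uridine for the last 15 min, and total RNA was depleted of ribosomal RNA. The treatment field of the labels names only 0 h and 2 h, while the titles and the series design give all 4 times. The samples used here include no vehicle-treated cells, so the length of ERK activation cannot be told apart from the length of exposure to the ligand or its carrier. Whether the clones were separate cultures beyond their clonal origin is not stated. The p-values rest on the variation left after terms for group and clone over all 12 libraries. They measure how unevenly these clones changed with time, and cover these clones only.

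ERK is the last kinase of the RAF-MEK-ERK cascade and phosphorylates transcription factors that are already in the cell. The first genes to respond, the immediate-early genes, need no newly made protein and are commonly transcribed in a short pulse. Many of them encode transcription factors of the EGR and AP-1 families. The genes that follow are called delayed-early, and secondary where they need such proteins to be made first. Whether any gene here needed newly made protein was not tested. In mouse embryonic stem cells ERK activity is known to move cells away from the naive pluripotent state, and blocking FGF receptors holds them in it.

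Total counts per library ran from 24213641 to 31435301 across the 12 libraries, and 14185 of 25897 gene symbols had enough counts to be tested. Levels are CPM, counts per 1000000 counts, after TMM scaling. Changes are log2 fold changes of 4 h over 1 h ± SE from edgeR's quasi-likelihood test with the clone as a block, with Benjamini-Hochberg adjusted p, and a gene was called at an adjusted p under 0.05. "Without the block" below means the same test that ignores which clone a library came from. Esr1, the gene of the oestrogen receptor whose ligand-binding domain the construct carries, had counts assigned at 18.2, 259.9 and 39.1 CPM at 4 h in clones a to c, against 18.1, 206 and 44.4 CPM at 1 h (log2 change 0.09 ± 0.21, edgeR adjusted p = 0.763). Clone a was lowest and clone b highest at both times. Whether these reads came from the construct or from the endogenous gene was not determined.

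After 4 h, 2839 genes were higher than at 1 h and 2802 were lower, which is 20.0% and 19.8% of the genes tested. By at least 2-fold, 816 were higher and 418 lower. By at least 8-fold, 86 were higher and 3 lower, so the large changes were mostly upward. The median change was 0.57 among genes called higher and -0.48 among those called lower, against -0.0043 over all genes tested, on the log2 scale. Of the 5641 called genes, 5600 moved the same way in clones a, b and c. Clone a moved least: genes called higher had median per-clone changes of 0.36, 0.69 and 0.58 in clones a, b and c, and those called lower had -0.30, -0.60 and -0.50. The order of the clones is that of their Esr1 counts, and the part of that difference in the response was not tested. Without the block, 1535 genes were higher and 1240 lower, and without clone c 1062 and 769. Without clone b the counts were 1469 and 1283, and without clone a 3535 and 3595. Leaving out the 1 h library of clone b gave 1883 and 1759, and its 4 h library 2051 and 1850.

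For comparison within the same model, 768 genes (5.41%) were higher and 224 (1.58%) lower at 1 h than in untreated cells. At 4 h, 3722 (26.2%) were higher and 3652 (25.7%) lower than in untreated cells. Both of these comparisons share libraries with that of 4 h with 1 h, so their values are only set side by side below. The comparison of 2 h with untreated cells shares clones but no library with it, and called 2924 genes (20.6%) higher and 2830 (20.0%) lower. Of the 2839 genes higher at 4 h than at 1 h, 1414 were also higher at 2 h than in untreated cells, which is 49.8% of the first list and 48.4% of the second. Another 119 of them (4.19%) were lower at 2 h. Of the 2802 genes lower at 4 h, 1380 were also lower at 2 h, which is 49.3% of the first list and 48.8% of the second, and 111 (3.96%) were higher.

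Lars2, Kpna1, Gphn and Camk1d together took 0.42%, 0.21% and 1.91% of the counts of clones a, b and c at 4 h, against 6.03%, 3.09% and 3.19% at 1 h. With their counts removed, 2840 genes were higher and 2800 lower. Of 180 genes named by fixed rules or described below, 173 were called, 117 of these also without the block, and 92 also in a test against a 1.5-fold change. Most were named because they were called, so the 173 was largely fixed by the choice. Over all genes tested 39.8% were called. Of those 5641 calls, 2775 were kept without the block and 1010 in the 1.5-fold test. Each count of list members higher or lower at 4 h than at 1 h stands beside 20.0% and 19.8% of all genes tested. Where a count of list members is given at its lowest, this is over 9 settings that left out 1 library of 1 h or 4 h, or 1 clone. The 81 called named genes that were not called in the test against a 1.5-fold change had a median absolute log2 change of 0.54. Reads were counted without a stated strand setting, so genes whose exons overlap another gene are uncertain. Among the genes described these are Grm6, Foxe1, Trim47, Rasgef1a, St8sia1, Vwa3a, Trp73, Fosl1, Nab2, Id4, Dusp5, Phlda1, Bmp4, Hmga2, Actg1, Gbx2, Dnmt3a, Pou3f1, Grhl2, Sox4, Lef1, Evx1, Eomes, Fn1, Tfcp2l1, Rrp9, Hk1, Ccnd2, Cdkn1a, Jun, Junb, Pou5f1, Tbx3, Otx2, Gata6 and Gadd45a in GENCODE M21.

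The largest rises were in genes at or near 0 at 1 h, and they came from families with unlike functions. A ranking by log2 change favours genes that start so low. Ccl20, a chemokine that draws lymphocytes and dendritic cells, had 11.4, 99.5 and 34.9 CPM at 4 h in clones a to c, against 0.245, 0.283 and 0.114 CPM at 1 h. Its log2 change was 7.70 ± 0.39 (edgeR adjusted p = 4.32e-06), with no overlap between the times. Cdx2, a homeodomain factor of the trophectoderm and the posterior embryo, had 4.61, 32.8 and 14.7 CPM at 4 h, against 0.122, 0.0707 and 0.0760 CPM at 1 h (log2 change 7.46 ± 0.47, edgeR adjusted p = 3.65e-06). Nppb, the natriuretic peptide B gene, had 5.53, 186 and 27.9 CPM at 4 h, against 0.531, 1.48 and 1.71 CPM at 1 h, a change of 5.40 ± 0.57 with a spread between clones at 4 h wider than for the others. Grm6, a glutamate receptor gene, had 233 counts over the 4 h libraries and 0 over those of 1 h, which makes it at least 76-fold higher when 3 counts in the group are taken as the floor. Foxe1, a forkhead factor, had 271 counts against 1, a ratio of 265 (95% counting interval 47.2 to 10500.0). Ptprc, the CD45 phosphatase gene, had 226 against 3, a ratio of 73.7 (24.9 to 360.0). These intervals cover counting error only.

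The remaining largest rises were in Cyth4 (5.51 ± 0.42, a guanine nucleotide exchange factor for ARF proteins), Ankrd63 (5.41 ± 0.33), Cyp26a1 (5.23 ± 0.47, an enzyme that degrades retinoic acid), Tmco5 (5.16 ± 0.48), Gpr142 (5.03 ± 0.34, a G protein-coupled receptor) and Gadd45g (4.94 ± 0.45, a growth arrest and stress gene). Cyp26a1 stood at 2.5, 10.1 and 8.65 CPM at 4 h, against 0.163, 0.106 and 0.266 CPM at 1 h, and its mean was 0.313 CPM at 2 h, so the rise lay after 2 h. Cyth4 stood at a mean of 8.17 CPM at 2 h and 13.3 CPM at 4 h, and so had made most of its rise by 2 h.

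The largest falls were smaller than the largest rises. Lefty1, a secreted inhibitor of Nodal signalling, had 18.1, 0.441 and 1.54 CPM at 4 h in clones a to c, against 107, 34.1 and 39.2 CPM at 1 h, a log2 change of -3.65 ± 0.55 (edgeR adjusted p = 0.000509 and 0.0662 without the block). The clones had unequal levels at 1 h, and the times did not overlap. Gnat3, a G protein alpha subunit, had 0.154, 0.305 and 0.237 CPM at 4 h, against 2.29, 2.47 and 0.874 CPM at 1 h (-2.97 ± 0.30). Rnf144b, an E3 ubiquitin ligase, changed by -2.55 ± 0.26 and Trim47, a tripartite motif protein, by -2.50 ± 0.36. Rasgef1a (-2.37 ± 0.20, an exchange factor for RAS-family proteins), Rassf4 (-2.23 ± 0.20, a RAS association domain protein), Sirpa (-2.24 ± 0.28, the receptor for CD47), Slc5a1 (-2.21 ± 0.36, a sodium and glucose cotransporter) and Dkk3 (-2.19 ± 0.32, a secreted dickkopf-family protein) fell too. The last members were St8sia1 (-2.13 ± 0.39, a sialyltransferase of ganglioside synthesis), whose adjusted p was 0.0616 without clone c, Trp73 (-2.04 ± 0.34, the p53 relative) and Vwa3a (-2.08 ± 0.72, edgeR adjusted p = 0.0403). The call of Vwa3a was lost in 7 of the 9 settings that left out 1 library or 1 clone, with adjusted p up to 0.15 without 1 h of clone a, and without the block (adjusted p = 0.0769).

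**Figure D1:**
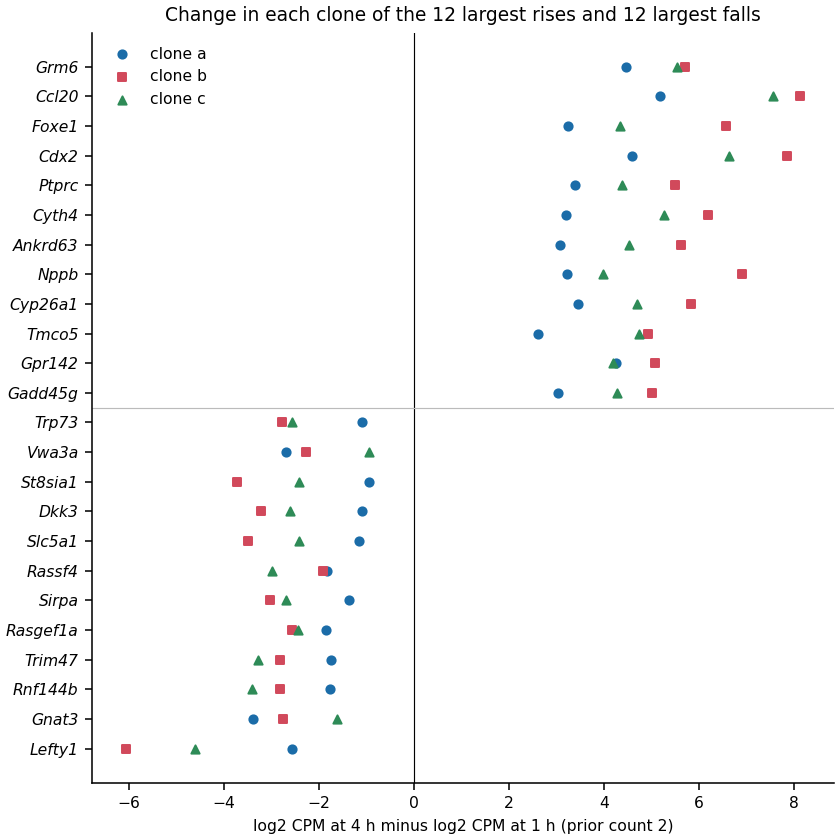
Change of log2 CPM at 4 h over 1 h (x axis, prior count of 2) in clones a (circles), b (squares) and c (triangles) for the 12 largest rises, above the line, and the 12 largest falls, below it. The genes were chosen for the same sign in 3 clones, so the side of 0 on which their points lie was fixed by the choice. Clone a lies nearest to 0 for most genes, as for Ccl20 (5.18, 8.13 and 7.55 in clones a, b and c).

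Among the immediate-early transcription factors, Egr1, Egr2 and Fos were lower at 4 h than at 1 h, though above untreated cells at both times, while Egr3, Ier5 and Klf6 were higher at 4 h than at 1 h. Of 23 members 21 were tested, and 11 were higher and 4 lower at 4 h than at 1 h, where 20.0% and 19.8% of all genes were. The counts were 4 higher and 2 lower without the block, and at the lowest 5 higher without clone c and 2 lower without clone c. At 1 h against untreated cells 13 members were higher and 0 lower, and at 4 h against untreated cells 18 were higher and 1 lower.

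Egr1 encodes a zinc finger factor that binds GC-rich sites. It had 32.6, 162 and 90.1 CPM at 4 h in clones a to c, against 117, 456 and 310.1 CPM at 1 h, so each clone fell while the highest clone at 4 h stood above the lowest at 1 h. Its log2 change was -1.67 ± 0.34 (edgeR adjusted p = 0.00266). The adjusted p was 0.0624 without the block and 0.084 without clone c. Its mean in untreated cells and at 1, 2 and 4 h was 8.0, 294, 175 and 94.8 CPM, so at 4 h it was still above the untreated level by 3.25 ± 0.40. Fos, a subunit of the AP-1 factor, had 8.76, 30.7 and 18.7 CPM at 4 h, against 33.7, 99.9 and 71.5 CPM at 1 h without overlap, and changed by -1.83 ± 0.20 (edgeR adjusted p = 7.84e-05). Egr2, a relative of Egr1 known from hindbrain and Schwann cells, had 0.691, 3.36 and 1.86 CPM at 4 h, against 3.35, 11.1 and 6.38 CPM at 1 h, a change of -1.83 ± 0.22 (edgeR adjusted p = 0.000109). The groups touched at clone b of 4 h and clone a of 1 h. Ier2 (-0.26 ± 0.07) was called lower. The call was lost in 6 of 9 settings that left out a library or clone (4 h of clones b and c, 1 h of clones a and b, and clones b and c), with adjusted p up to 0.157 without clone b, and without the block (adjusted p = 0.331).

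Egr3 behaved unlike its relatives. It had 3.53, 25.2 and 13.4 CPM at 4 h, against 0.367, 2.19 and 1.29 CPM at 1 h, with each library of 4 h above each of 1 h, and changed by 3.38 ± 0.28 (edgeR adjusted p = 1.47e-05). Its means were 0.0527, 1.28, 15.4 and 14.1 CPM in untreated cells and at 1, 2 and 4 h, so it had reached its 4 h level by 2 h. Ier5, an immediate-early gene linked to the heat shock response, had 6.53, 10.8 and 10.9 CPM at 4 h, against 2.94, 2.05 and 2.17 CPM at 1 h (1.98 ± 0.23, edgeR adjusted p = 9.47e-05). Its 2 h mean of 3.43 CPM lay nearer to the 1 h mean of 2.38 CPM than to the 4 h mean of 9.4 CPM. Klf6, a zinc finger factor of the Kruppel-like family, had 107, 257 and 165 CPM at 4 h, against 67.2, 64.6 and 65.6 CPM at 1 h (1.35 ± 0.20, edgeR adjusted p = 0.000496). Myc, the bHLH factor of growth and biosynthesis, had 92.7, 176 and 152 CPM at 4 h, against 75.2, 82.8 and 106 CPM at 1 h (0.65 ± 0.13, edgeR adjusted p = 0.00236 and 0.0826 without the block). This followed a change of 1.74 ± 0.14 at 1 h over untreated cells. Jun, the partner of Fos in AP-1, was not called by the model of all 12 libraries (-0.72 ± 0.29, edgeR adjusted p = 0.0697). It was called lower by the fit of only the 6 libraries of 1 h and 4 h with the clone block (-0.70, edgeR adjusted p = 0.0188) and without clone a (-0.86, edgeR adjusted p = 0.00891). Over all alternatives the adjusted p of Jun ran from 0.00891 to 0.851. Its clones differed widely, with 5.22, 31 and 9.6 CPM at 4 h, against 6.45, 62.9 and 14.4 CPM at 1 h. Junb (0.66 ± 0.16, edgeR adjusted p = 0.00829) was called higher but not without the block (adjusted p = 0.339). Its largest adjusted p on leaving out a library or clone was 0.0632 without clone b.

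**Figure D2:**
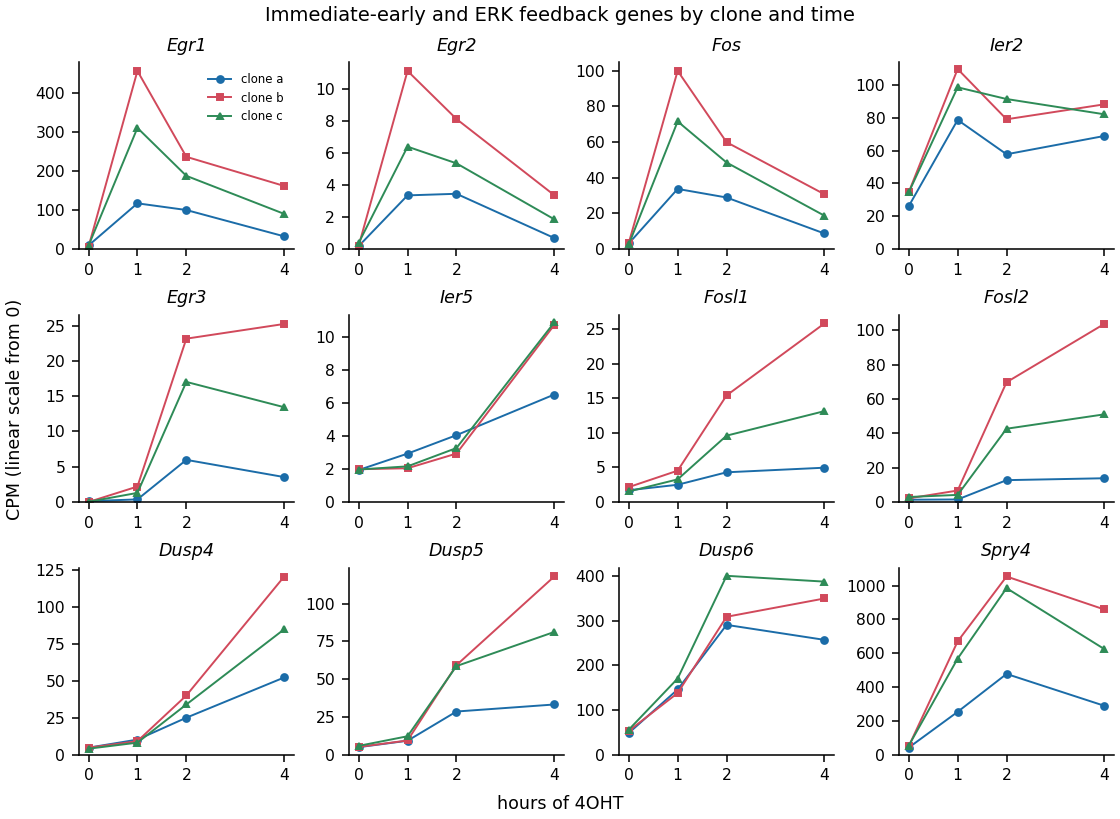
CPM (y axis, linear from 0, each panel with its own range) against hours of 4OHT (x axis, 0 being untreated) for 12 genes, with a line per clone (a circles, b squares, c triangles). Egr1, Egr2 and Fos peak at 1 h in clones b and c; Egr3, Fosl1, Fosl2, Dusp4 and Dusp5 are low at 1 h and high at 4 h, as in Dusp4 with a mean of 85.9 CPM at 4 h and 9.29 CPM at 1 h.

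The AP-1 subunits known as delayed-early genes rose between 1 h and 4 h. Fosl2, which encodes the FRA-2 subunit, had 13.8, 104 and 51 CPM at 4 h in clones a to c, against 1.47, 6.68 and 4.14 CPM at 1 h, with no overlap, and changed by 3.67 ± 0.26 (edgeR adjusted p = 6.16e-06). Its means were 2.11, 4.1, 41.7 and 56.2 CPM in untreated cells and at 1, 2 and 4 h. Fosl1, which encodes FRA-1, had 4.95, 25.8 and 13.1 CPM at 4 h, against 2.49, 4.52 and 3.27 CPM at 1 h (1.94 ± 0.29, edgeR adjusted p = 0.000445). At 1 h over untreated cells neither was called, with changes of 0.81 ± 0.32 for Fosl2 (edgeR adjusted p = 0.153) and 0.88 ± 0.34 for Fosl1 (edgeR adjusted p = 0.144). Of 6 tested members of the list of such AP-1 genes and their small-MAF and BACH partners, 4 were higher and 1 lower (3 higher and 0 lower without the block, and at the lowest 2 higher without 1 h of clone b and 0 lower without clone c).

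The Nab genes encode corepressors that bind EGR factors and are known EGR targets. Nab1 had 78.8, 218 and 153 CPM at 4 h in clones a to c, against 22.7, 39.7 and 25.3 CPM at 1 h, without overlap, a change of 2.31 ± 0.27 (edgeR adjusted p = 0.000115). Nab2 had 101, 242 and 185 CPM at 4 h, against 48.8, 93 and 74.6 CPM at 1 h (1.25 ± 0.18, edgeR adjusted p = 0.00033), also without overlap. Their means in untreated cells and at 1, 2 and 4 h were 18.6, 29.2, 129 and 150.0 CPM for Nab1 and 33.7, 72.2, 274 and 176 CPM for Nab2, so both stood high at 2 h, and Nab2 was lower again at 4 h.

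Promoter windows of 250 bases before the RefSeq start were searched on both strands for EGR sites (GCGTGGGCG or GCGGGGGCG), AP-1 sites (TGANTCA) and the CArG box bound by SRF. Nab1, Dusp5 and Plaur are shown because each rose and holds matches to 1 of these motifs or more. The windows are on GRCm38.p6, 5′ to 3′ on the strand of the gene, with matches in capitals. They lie at chr1:52500449-52500698 on the minus strand (Nab1), chr19:53528895-53529144 on the plus strand (Dusp5) and chr7:24462233-24462482 on the plus strand (Plaur).
Nab1: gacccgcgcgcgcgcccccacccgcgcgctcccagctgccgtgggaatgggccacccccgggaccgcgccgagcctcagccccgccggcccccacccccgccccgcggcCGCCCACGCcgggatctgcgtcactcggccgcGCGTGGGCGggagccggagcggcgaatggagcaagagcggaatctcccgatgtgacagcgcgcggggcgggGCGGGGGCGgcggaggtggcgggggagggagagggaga
Dusp5: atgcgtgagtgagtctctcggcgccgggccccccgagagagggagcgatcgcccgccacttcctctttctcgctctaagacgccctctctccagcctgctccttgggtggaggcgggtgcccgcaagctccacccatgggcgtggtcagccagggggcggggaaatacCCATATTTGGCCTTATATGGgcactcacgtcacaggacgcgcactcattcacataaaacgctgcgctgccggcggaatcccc
Plaur: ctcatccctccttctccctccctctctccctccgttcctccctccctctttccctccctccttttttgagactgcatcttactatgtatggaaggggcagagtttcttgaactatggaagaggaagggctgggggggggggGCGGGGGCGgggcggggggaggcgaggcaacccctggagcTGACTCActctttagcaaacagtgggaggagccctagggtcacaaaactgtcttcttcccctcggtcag
In Nab1 the capitals are 3 EGR matches that begin 38, 109 and 141 bases before the start. In Dusp5 they are a pair of adjoining CArG boxes at 72 and 82 bases, and in Plaur an AP-1 match at 69 bases and an EGR match at 109 bases. The first transcribed bases of the Plaur window were not in a GENCODE M21 transcript of that gene. Over 32851 windows of this length, 3.06% held an EGR match, 6.75% an AP-1 match and 1.47% a CArG match. These windows were not limited to the genes tested here, so their shares are not a matched background for the named genes. Whether the named genes hold more matches than other tested genes was not tested. Of the named genes, 135 of 180 had a window. Among 82 called higher, 12.2% held an EGR, 2.44% an AP-1 and 1.22% a CArG match. Among 49 called lower these shares were 10.2%, 2.04% and 4.08%. A match is only a description of these letters.

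The Id genes encode helix-loop-helix proteins that inactivate bHLH factors, and they are known targets of BMP signalling. They moved in opposite directions. Id1 had 53.7, 119 and 112 CPM at 4 h, against 18.8, 24.7 and 25.3 CPM at 1 h (1.99 ± 0.20, edgeR adjusted p = 4.76e-05), with no overlap. Id3 had 14.7, 24.4 and 19.4 CPM at 4 h, against 28.7, 39.7 and 32.5 CPM at 1 h (-0.80 ± 0.12, edgeR adjusted p = 0.000428 and 0.055 without the block), having stood at a mean of 6.68 CPM in untreated cells. Id4 was lower in each clone (-1.03 ± 0.21, edgeR adjusted p = 0.00269 and 0.195 without the block). Of the 6 Nab and Id genes 3 rose and 3 fell (3 higher and 1 lower without the block).

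Factors that shorten the life of mRNA, such as the ZFP36 and BTG/TOB proteins, include several immediate-early genes. Of the 10 members 2 were higher and 4 lower, with a median of -0.13 (1 higher and 2 lower without the block, and at the lowest 1 higher without clone c and 2 lower without 4 h of clone b). Btg2, an antiproliferative partner of the CCR4-NOT deadenylase, had 28, 13.8 and 26.4 CPM at 4 h, against 43.1, 38.5 and 64 CPM at 1 h (-1.12 ± 0.12, edgeR adjusted p = 7.22e-05). Tob1, of the same family, had 26.5, 15.1 and 22.6 CPM at 4 h, against 34.4, 30.3 and 42.2 CPM at 1 h (-0.75 ± 0.11, edgeR adjusted p = 0.000461). Zc3h12a, the endonuclease regnase-1, was called higher (0.59 ± 0.08, edgeR adjusted p = 0.000234) but not without the block (adjusted p = 0.163).

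Genes for inhibitors of the ERK pathway, which ERK is known to induce as negative feedback, were higher at 4 h than at 1 h in 12 of 18 tested members and lower in 2, with a median of 0.56. The changes ran from -1.65 to 3.15. The members described below were taken by smallest p or from the fixed panel, and the 2 called lower are not among them. The counts were 11 higher and 0 lower without the block, and at the lowest 9 higher and 0 lower, both without clone c. At 1 h against untreated cells 6 were higher and 0 lower, and at 4 h against untreated cells 14 and 1. The DUSP genes encode phosphatases that remove the activating phosphates of MAP kinases.

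Dusp4, a nuclear phosphatase, had 52.3, 121 and 84.9 CPM at 4 h in clones a to c, against 10.3, 9.26 and 8.28 CPM at 1 h (3.15 ± 0.22, edgeR adjusted p = 5.24e-06), with every library of 4 h above every one of 1 h. Dusp5, also nuclear and specific for ERK, had 33.3, 118 and 81.2 CPM at 4 h, against 9.35, 9.51 and 12.3 CPM at 1 h (2.78 ± 0.28, edgeR adjusted p = 4.17e-05), again with no overlap. Dusp2 had 0.499, 2.44 and 1.78 CPM at 4 h, against 0.122, 0.283 and 0.228 CPM at 1 h (2.84 ± 0.30, edgeR adjusted p = 5.57e-05), a low level throughout. Dusp6, the cytoplasmic ERK phosphatase, had 257, 349.8 and 387 CPM at 4 h, against 146, 138 and 171 CPM at 1 h (1.11 ± 0.09, edgeR adjusted p = 1.13e-05). It had already changed by 1.52 ± 0.09 at 1 h over untreated cells (edgeR adjusted p = 1.42e-05). At 1 h the change over untreated cells was 0.99 ± 0.24 for Dusp4 (edgeR adjusted p = 0.0349) and 0.92 ± 0.31 for Dusp5 (edgeR adjusted p = 0.0988).

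The Sprouty and Spred proteins act upstream, at the level of RAS and RAF. Spred1 had 230.1, 282 and 305 CPM at 4 h, against 95.2, 92.4 and 111 CPM at 1 h (1.45 ± 0.07, edgeR adjusted p = 7.54e-07), with a narrow spread between clones. Spry2 had 120.0, 174 and 165 CPM at 4 h, against 91, 102 and 104 CPM at 1 h (0.62 ± 0.09, edgeR adjusted p = 0.000364). Spry4 had 290.0, 859 and 625 CPM at 4 h, against 254, 670.5 and 569 CPM at 1 h, and was not called (0.23 ± 0.18, edgeR adjusted p = 0.335). The fit of only the 6 libraries of 1 h and 4 h, also with the clone block, did call Spry4 higher (0.22, edgeR adjusted p = 0.0287), and over all alternatives its adjusted p ran from 0.0287 to 1. It had changed by 3.19 ± 0.20 at 1 h over untreated cells, and its 2 h mean of 839 CPM exceeded its 4 h mean of 591 CPM. Dusp4, Dusp5 and Spred1 instead had their highest mean at 4 h, with 2 h means of 33.1, 48.9 and 176 CPM.

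ETS factors of the PEA3 group and other known ERK targets were higher in 11 of 20 members and lower in 5, with a median of 0.19 (6 higher and 2 lower without the block, and at the lowest 5 higher without clone c and 0 lower without clone c). Etv4, a PEA3-group factor, had 89.7, 118 and 130.4 CPM at 4 h, against 20.5, 24.5 and 31.2 CPM at 1 h (2.15 ± 0.07, edgeR adjusted p = 4.67e-08), with no overlap and similar values in the clones. Its relative Etv5 had 397, 472 and 436 CPM at 4 h, against 356, 403 and 368 CPM at 1 h (0.21 ± 0.05, edgeR adjusted p = 0.00792). This small difference lost its call without clone b, without clone c (adjusted p up to 0.156 without clone c) and without the block (adjusted p = 0.112). Phlda1, a pleckstrin homology domain protein, had 6.49, 42 and 20.7 CPM at 4 h, against 1.51, 3.75 and 2.7 CPM at 1 h (2.97 ± 0.31, edgeR adjusted p = 5.21e-05). Trib1, a pseudokinase that brings proteins to the COP1 ubiquitin ligase, had 23.1, 48.7 and 35.2 CPM at 4 h, against 8.78, 6.43 and 6.88 CPM at 1 h (2.24 ± 0.21, edgeR adjusted p = 2.71e-05). Shc1, an adaptor of receptor tyrosine kinases, had 155, 206 and 192 CPM at 4 h, against 114, 119 and 120.0 CPM at 1 h (0.64 ± 0.06, edgeR adjusted p = 3.63e-05). Neither Trib1 nor Shc1 was called at 1 h over untreated cells, with edgeR adjusted p = 0.461 and 0.178. The 5 members called lower are not among those described, and changes over the list ran from -0.89 to 2.97.

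Secreted ligands changed in both directions. Of 37 members 25 were tested, 11 were higher and 9 lower (7 higher and 4 lower without the block, and at the lowest 6 higher without clone c). Bmp4, the ligand of BMP receptors, had 106, 265 and 212 CPM at 4 h in clones a to c, against 35.5, 67.5 and 53.5 CPM at 1 h (1.85 ± 0.11, edgeR adjusted p = 3.25e-06), with no overlap. Fgf4, the main FGF of naive cells and itself an activator of ERK, had 211, 142 and 141 CPM at 4 h, against 397, 514 and 421 CPM at 1 h (-1.44 ± 0.13, edgeR adjusted p = 2.79e-05), with no overlap. Nodal, a TGF-beta family ligand, had 58.3, 73.4 and 51.5 CPM at 4 h, against 106, 164 and 122 CPM at 1 h (-1.08 ± 0.10, edgeR adjusted p = 2.71e-05). Its mean was 85.6 CPM in untreated cells, so the level at 1 h was the highest of the 4 times and that at 4 h the lowest. Cxcl2, Ccl2 and Fgf1 had 0 counts in all libraries.

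Genes of proteases, adhesion and matrix that are known to respond to AP-1 were higher in 13 of 21 tested members and lower in 1, of 27 listed, with a median of 0.47 (7 higher and 0 lower without the block, at the lowest 7 higher without clone c and 0 lower without 1 h of clone c, and at the highest 2 lower). The summed level of the list was nevertheless lower at 4 h in each clone, at 1540, 2520 and 3560 CPM at 4 h, against 7170, 3940 and 3760 CPM at 1 h. Cd44, the hyaluronan receptor, singled out after its values were seen, was not called, and its difference exceeded that of the sum in each clone. It had 263, 149.5 and 1522 CPM at 4 h, against 6112, 2659.5 and 2389 CPM at 1 h (-2.43 ± 1.15, edgeR adjusted p = 0.115). In these libraries Lars2, Kpna1, Gphn and Camk1d together took 0.42%, 0.21% and 1.91% of counts at 4 h, against 6.03%, 3.09% and 3.19% at 1 h. Cd44 and the share of these genes were thus both lower at 4 h in each clone, and a link between them was not tested. Plaur, the receptor for urokinase, had 126, 481 and 279 CPM at 4 h in clones a to c, against 31.6, 81.5 and 55.7 CPM at 1 h (2.31 ± 0.21, edgeR adjusted p = 2.41e-05), with no overlap. Hmga2, a chromatin protein, had 50.1, 87.2 and 84.6 CPM at 4 h, against 22.5, 12.9 and 22.8 CPM at 1 h (1.99 ± 0.29, edgeR adjusted p = 0.000386). Tnfrsf12a, the receptor for TWEAK, had 15.6, 51.3 and 28.1 CPM at 4 h, against 8.2, 16.7 and 9.69 CPM at 1 h (1.39 ± 0.21, edgeR adjusted p = 0.000561). It stood higher still at 2 h, at a mean of 40.5 CPM. Krt18, a keratin of simple epithelia, had 18.7, 69.6 and 26.5 CPM at 4 h, against 9.88, 13.6 and 8.17 CPM at 1 h (1.72 ± 0.23, edgeR adjusted p = 0.000231). Vim, the intermediate filament vimentin, had 275, 348 and 537 CPM at 4 h, against 191, 166 and 305 CPM at 1 h (0.81 ± 0.08, edgeR adjusted p = 4.03e-05 and 0.118 without the block). At 1 h over untreated cells 3 members of this list were higher and 0 lower, and at 4 h 15 and 0. Genes of the cytoskeleton that SRF is known to regulate were higher in 2 of 13 tested members (15.4%) and lower in 3 (23.1%). The counts were 0 higher and 1 lower without the block, and at the lowest 1 higher without clone b and 1 lower without clone c. Actg1, a cytoplasmic actin, had 19.9, 24 and 19.7 CPM at 4 h, against 26.8, 40.7 and 35.2 CPM at 1 h (-0.68 ± 0.11, edgeR adjusted p = 0.000604). Tpm1 (-0.33, edgeR adjusted p = 0.00455) and Cnn2 (-0.43, edgeR adjusted p = 0.0116) were called lower too. Tagln2 (0.43, edgeR adjusted p = 0.00114) and Actb (0.27, edgeR adjusted p = 0.00414), another cytoplasmic actin, were called higher. The list summed to 6790, 8520 and 7430 CPM at 4 h in clones a to c, against 6260, 7160 and 6550 CPM at 1 h.

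The labelled cell type was checked against the markers of stem cells, and these were present in all 6 libraries. The naive and general pluripotency lists summed to 5420, 4860 and 5670 CPM and 7760, 8720 and 8350 CPM at 4 h in clones a to c, against 6540, 6890 and 7570 CPM and 7530, 7980 and 7680 CPM at 1 h. In bulk RNA, fewer cells of a state and less of its RNA in each cell cannot be told apart.

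Of the 20 naive pluripotency genes 9 were lower at 4 h than at 1 h and 5 were higher, against 4 higher and 0 lower at 1 h over untreated cells. Their median change was -0.30. Nanog, a homeodomain factor of the naive network, had 315, 243 and 289 CPM at 4 h in clones a to c, against 665, 832 and 853 CPM at 1 h, with no overlap, a change of -1.46 ± 0.11 (edgeR adjusted p = 1.1e-05). At 2 h it stood at 565, 713 and 744 CPM in clones a, b and c, and in untreated cells at 655, 717 and 725 CPM, so most of its fall lay between 2 h and 4 h. Klf4, a Kruppel-like factor, had 131, 68.5 and 104 CPM at 4 h, against 200.2, 307 and 254 CPM at 1 h (-1.31 ± 0.24, edgeR adjusted p = 0.00144). Tbx3, a T-box factor, had 76.9, 56.4 and 88.8 CPM at 4 h, against 130.0, 124 and 164 CPM at 1 h (-0.92 ± 0.11, edgeR adjusted p = 0.000149). At 2 h its mean of 76.5 CPM was close to its 4 h mean of 74 CPM. Tfcp2l1, a target of LIF and STAT3 in the naive network, had 1099, 545 and 1148 CPM at 4 h, against 1653, 1256 and 2132 CPM at 1 h (-0.89 ± 0.09, edgeR adjusted p = 5.56e-05 and 0.0811 without the block). Esrrb, an orphan nuclear receptor, had 694, 453 and 621 CPM at 4 h, against 745, 757 and 795 CPM at 1 h (-0.39 ± 0.11, edgeR adjusted p = 0.017). The call of Esrrb was lost without the block (adjusted p = 0.0618) and in 5 of the 9 settings that left out a library or clone (4 h of clones b and c, 1 h of clone b, and clones b and c), with adjusted p up to 0.146 without clone c.

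Some naive genes went the other way. Gbx2, a homeodomain factor that LIF induces, had 27.6, 26.7 and 41.5 CPM at 4 h, against 8.37, 5.76 and 8.05 CPM at 1 h (2.10 ± 0.16, edgeR adjusted p = 8.28e-06), with no overlap. Nr0b1, the orphan receptor DAX1, had 212, 226 and 203 CPM at 4 h, against 131, 129 and 108 CPM at 1 h (0.80 ± 0.06, edgeR adjusted p = 1.03e-05). Klf5 had 252, 399 and 364 CPM at 4 h, against 181, 230.2 and 236 CPM at 1 h (0.64 ± 0.08, edgeR adjusted p = 0.000151), opposite in direction to its relative Klf4. Bmp4, given above with the ligands, is also of this list.

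Genes shared by naive and later pluripotent cells were higher in 6 of 15 members and lower in 3. Sox2, a core factor with Oct4, had 419, 407 and 436 CPM at 4 h, against 451, 363 and 408 CPM at 1 h (0.05 ± 0.09, edgeR adjusted p = 0.679). Pou5f1, which encodes Oct4, had 1032, 1171 and 1128 CPM at 4 h, against 926, 950.3 and 925 CPM at 1 h (0.25 ± 0.07, edgeR adjusted p = 0.0136). The call was lost without the block (adjusted p = 0.115) and without the 1 h libraries of clones b or c or all of clone b or c (adjusted p up to 0.177 without clone b). Fbxo15, an F-box gene used as a marker of stem cells, had 221, 163 and 218 CPM at 4 h, against 367, 367 and 412 CPM at 1 h (-0.94 ± 0.07, edgeR adjusted p = 1.12e-05). Utf1, a chromatin protein of pluripotent cells, had 69.8, 62.6 and 77.3 CPM at 4 h, against 34.1, 33.7 and 35.9 CPM at 1 h (1.01 ± 0.15, edgeR adjusted p = 0.000515).

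The genes of formative epiblast, the state that follows the naive one, were higher in 8 of 16 members and lower in 3, with a median of 0.52 (6 higher and 1 lower without the block, and at the lowest 1 lower without 4 h of clone c). Pou3f1, the POU factor OCT6, had 9.98, 22.8 and 12.4 CPM at 4 h in clones a to c, against 2.16, 2.33 and 1.56 CPM at 1 h (2.85 ± 0.22, edgeR adjusted p = 1.08e-05), with no overlap. Sox4, an SRY-box factor, had 166, 289 and 226 CPM at 4 h, against 73.4, 56.5 and 45.3 CPM at 1 h (1.96 ± 0.20, edgeR adjusted p = 4.42e-05). Grhl2, a grainyhead factor of epithelial genes, had 98.3, 119.8 and 93.9 CPM at 4 h, against 32.3, 31.7 and 17.4 CPM at 1 h (1.99 ± 0.16, edgeR adjusted p = 1.45e-05). At 2 h it was still at a mean of 33.2 CPM. Dnmt3a, a de novo DNA methyltransferase, had 132, 111 and 124 CPM at 4 h, against 69.3, 41.6 and 45.4 CPM at 1 h (1.26 ± 0.09, edgeR adjusted p = 8e-06). Otx2, a homeodomain factor that is widely used as a marker of this state, had 83.9, 65.5 and 64.7 CPM at 4 h, against 102, 62 and 67.3 CPM at 1 h (-0.09 ± 0.12, edgeR adjusted p = 0.598). Pou3f1, Sox4, Grhl2 and Dnmt3a were not called at 1 h over untreated cells, with edgeR adjusted p from 0.463 for Pou3f1 to 0.942 for Grhl2. They were described because their p was among the smallest of the called members. The 3 members called lower are not described here, and changes over the list ran from -0.83 to 2.85.

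**Figure D3:**
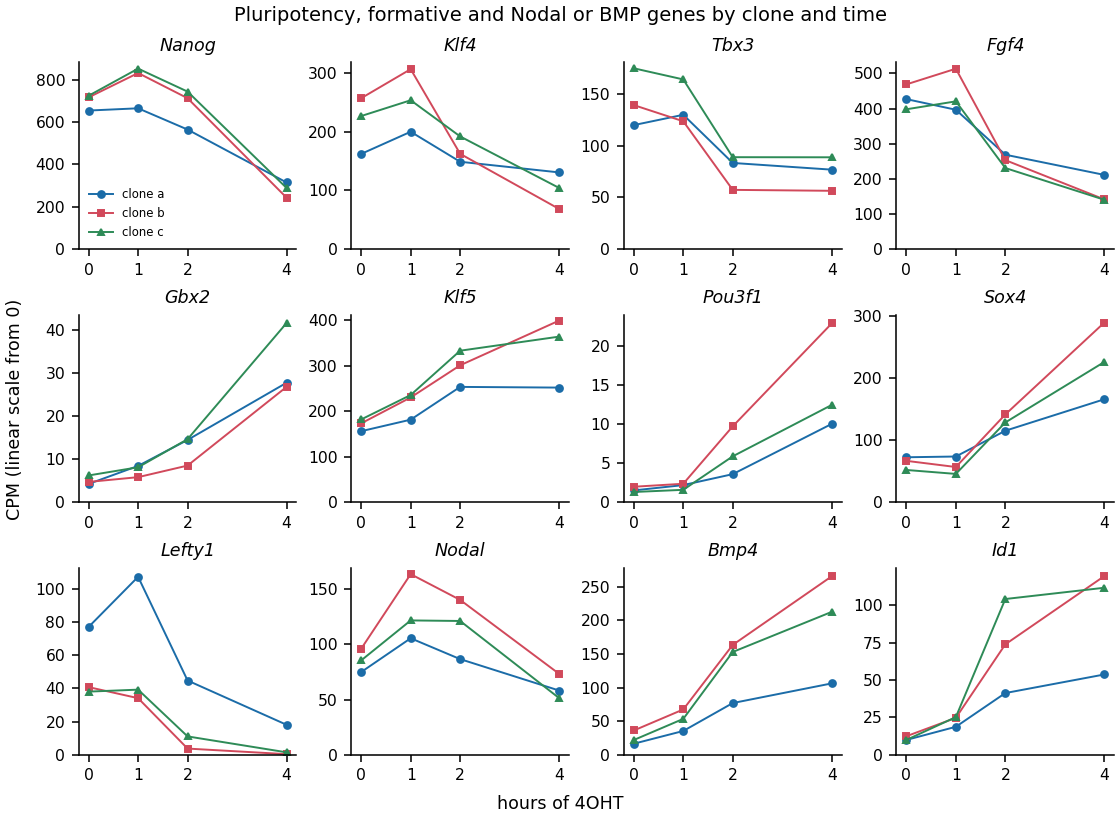
CPM (y axis, linear from 0, each panel with its own range) against hours of 4OHT (x axis, 0 being untreated) for 12 genes of pluripotency and of BMP or Nodal signalling, with a line per clone (a circles, b squares, c triangles). Nanog, Klf4, Fgf4, Lefty1 and Nodal are lower at 4 h than at 1 h in each clone, while Gbx2, Klf5, Pou3f1, Sox4, Bmp4 and Id1 are higher, as in Sox4 with means of 227 CPM at 4 h and 58.4 CPM at 1 h.

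Targets of BMP and Nodal signalling were lower in 10 of 17 members and higher in 2, with a median of -0.50 (2 higher and 4 lower without the block). The fall included Nodal and Lefty1, both given above, which Nodal signalling itself is known to induce. Msx1, a homeodomain factor downstream of BMP, rose instead, with 3.03, 11.2 and 6.6 CPM at 4 h, against 0.490, 0.354 and 0.608 CPM at 1 h (3.76 ± 0.35, edgeR adjusted p = 2.93e-05), as did Id1. The 2 members that rose are BMP targets in textbook accounts, but so is Id3, which was lower.

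Wnt and TCF targets were higher in 6 of 15 tested members and lower in 3, in cells kept with a GSK3 inhibitor until 24 h before treatment. Their median change was 0.013, with a range from -0.95 to 7.46. The counts were 5 higher and 1 lower without the block, and at the lowest 1 lower without 4 h of clone b. The members described next are among those that rose. Lef1, a TCF-family factor, had 6.68, 9.8 and 6.4 CPM at 4 h, against 3.1, 4.45 and 1.63 CPM at 1 h (1.36 ± 0.16, edgeR adjusted p = 0.000122). Tcf7 had 37.8, 63 and 57.9 CPM at 4 h, against 25.7, 25 and 23.7 CPM at 1 h (1.07 ± 0.15, edgeR adjusted p = 0.000256). Sp5, a zinc finger factor, had 1.61, 1.15 and 1.86 CPM at 4 h, against 0.531, 0.177 and 0.342 CPM at 1 h (2.16 ± 0.29, edgeR adjusted p = 0.000247). Of the LIF and STAT3 targets 5 of 15 members were higher and 6 lower (3 higher and 2 lower without the block, and at the lowest 3 higher without clone c and 2 lower without clone c). Socs2, a feedback inhibitor of cytokine receptors, had 107, 108 and 119.7 CPM at 4 h, against 62.6, 46.2 and 55.6 CPM at 1 h (1.04 ± 0.09, edgeR adjusted p = 2.18e-05).

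Of the retinoic acid genes 4 of 13 tested members were higher and 1 lower (at the highest 2 lower), and those that moved most handle retinoic acid itself. Aldh1a3, an enzyme that makes it, had 4.15, 21.3 and 14.1 CPM at 4 h, against 0.490, 0.318 and 0.836 CPM at 1 h (4.48 ± 0.42, edgeR adjusted p = 2.71e-05), with no overlap. Cyp26a1, which degrades it, is among the largest rises above. Rarg, a retinoic acid receptor, had 172, 258 and 228 CPM at 4 h, against 94.7, 116 and 102 CPM at 1 h (1.06 ± 0.07, edgeR adjusted p = 4.67e-06). Dhrs3, a reductase that lowers retinaldehyde, had 1.96, 0.882 and 1.42 CPM at 4 h, against 3.18, 2.65 and 3.0 CPM at 1 h (-1.09 ± 0.19, edgeR adjusted p = 0.00111).

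Markers of other lineages were read as levels too. The primitive streak and mesoderm list had 12 of 20 members tested, of which 5 were higher and 1 lower (at the lowest 0 lower without 4 h of clone b, and at the highest 2 lower). It summed to 35.5, 47.5 and 64.2 CPM at 4 h, against 14.6, 15.9 and 16 CPM at 1 h. Evx1, a homeodomain factor of the streak, had 7.07, 17.6 and 15.5 CPM at 4 h, against 2.0, 3.0 and 1.79 CPM at 1 h (2.51 ± 0.19, edgeR adjusted p = 9.38e-06). Eomes, a T-box factor, had 10.4, 15.7 and 19.1 CPM at 4 h, against 3.22, 3.25 and 3.0 CPM at 1 h (2.23 ± 0.20, edgeR adjusted p = 2.41e-05). T, which encodes brachyury, had 1.77, 1.15 and 3.2 CPM at 4 h, against 0.490, 0.424 and 0.418 CPM at 1 h (2.13 ± 0.30, edgeR adjusted p = 0.000318), a low level at both times. Snai2, the member called lower, changed by -1.36 (edgeR adjusted p = 0.00989, and up to 0.101 without clone b).

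In the trophoblast list 4 of 10 tested members were higher and 0 lower (at the highest 1 lower). Its members summed to 183, 440 and 315 CPM at 4 h, against 114, 102 and 130 CPM at 1 h. Beside Cdx2, Tead4, a TEA domain factor, accounted for most of the 4 h sum, with 128, 295 and 233 CPM at 4 h, against 59.6, 56.8 and 77.8 CPM at 1 h (1.72 ± 0.20, edgeR adjusted p = 0.000112). The primitive endoderm list showed 4 of 19 (21.1%) higher and 2 (10.5%) lower, beside 20.0% and 19.8% of all genes tested. Its counts were 1 higher and 0 lower without the block, and at the lowest 1 higher without clone c and 1 lower without 4 h of clone b. Its sums were 1730, 1890 and 2160 CPM at 4 h, against 1750, 1790 and 2080 CPM at 1 h. Its lineage factors Gata4 and Gata6 were low and not called. Gata4 had 1.46, 0.814 and 2.37 CPM at 4 h, against 2.16, 2.02 and 2.47 CPM at 1 h (edgeR adjusted p = 0.0744, from 0.0318 without 1 h of clone c, where it was called lower, to 1 over the alternatives). Gata6 had 0.653, 0.543 and 1.66 CPM at 4 h, against 0.612, 0.318 and 1.33 CPM at 1 h (edgeR adjusted p = 0.395).

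The neural list had 6 of 14 members tested, with 3 higher and 3 lower (2 higher and 1 lower without the block), and Tubb3, Neurod1 and Neurog2 had 0 counts in all libraries. Its sums were 161, 222 and 192 CPM at 4 h, against 144, 157 and 156 CPM at 1 h. Nes, the intermediate filament nestin, had 47.6, 102 and 72.2 CPM at 4 h, against 24.5, 31.5 and 28.6 CPM at 1 h (1.34 ± 0.12, edgeR adjusted p = 2.01e-05). Ncam1 (-0.45, edgeR adjusted p = 5.98e-05) and Map2 (-0.84, edgeR adjusted p = 0.000356 and 0.0877 without the block) of the same list were lower. The feeder fibroblast list had 6 of 14 tested, with 2 higher and 3 lower (2 higher and 0 lower without the block, and at the lowest 0 lower without clone c). They summed to 738, 828 and 929 CPM at 4 h, against 869, 1040 and 1130 CPM at 1 h. Twist1, a bHLH factor of mesenchyme, rose by 3.24 ± 0.24 and Thy1, a surface glycoprotein, by 2.13 ± 0.20 (edgeR adjusted p = 8e-06 and 2.63e-05). Fn1, which supplied most of the sum, was lower (-0.33 ± 0.07, edgeR adjusted p = 0.00386, 0.104 without the block and 0.0639 without clone c). Whether these changes came from all cells or from few was not tested. No member of the two-cell-like list had enough counts to be tested, and its sums were 0.0768, 0.407 and 0.079 CPM at 4 h, against 0.0408, 0.389 and 0.076 CPM at 1 h.

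Targets of p53 had the lowest median of the 33 lists with tested members, -0.73, with 12 of 16 members lower and 2 higher at 4 h than at 1 h (at the lowest 7 lower without clone c). At 1 h over untreated cells 5 of them were higher and 0 lower, and at 4 h over untreated cells 3 were higher and 8 lower. Trp53inp1, a stress-induced nuclear protein, had 102, 51.7 and 67.9 CPM at 4 h in clones a to c, against 179, 159 and 169.8 CPM at 1 h, with no overlap (-1.24 ± 0.12, edgeR adjusted p = 3.73e-05). Cdkn1a, the cell cycle inhibitor p21, had 8.49, 10.8 and 9.64 CPM at 4 h, against 16.2, 18.2 and 24 CPM at 1 h (-0.99 ± 0.12, edgeR adjusted p = 0.000144). Plk2, a polo-like kinase, had 15.6, 21.7 and 17 CPM at 4 h, against 27.1, 41 and 39.8 CPM at 1 h (-0.98 ± 0.12, edgeR adjusted p = 0.000126). Ccng1, cyclin G1, had 162, 116 and 127 CPM at 4 h, against 213, 221 and 239.8 CPM at 1 h (-0.74 ± 0.09, edgeR adjusted p = 0.000138). The 2 members that rose, singled out after their values were seen, were Pmaip1, which encodes the apoptosis protein NOXA (1.69 ± 0.23, edgeR adjusted p = 0.00028), and Gadd45a (1.20 ± 0.19, edgeR adjusted p = 0.000689).

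In the cell cycle list 5 of 25 members (20.0%) were higher and 7 (28.0%) lower, beside 20.0% and 19.8% of all genes tested (4 higher and 3 lower without the block, and at the lowest 3 lower without clone b). Ccnd2, the G1 cyclin D2, had 97, 80.7 and 118 CPM at 4 h in clones a to c, against 24, 11.4 and 15.1 CPM at 1 h (2.60 ± 0.17, edgeR adjusted p = 3.9e-06), with no overlap and the smallest change in clone a. E2f1, a factor of S phase genes, had 27, 21.5 and 22.9 CPM at 4 h, against 39.6, 43.2 and 40.7 CPM at 1 h (-0.79 ± 0.10, edgeR adjusted p = 0.000151). Cdkn1b, the inhibitor p27, had 40.8, 60.1 and 35.6 CPM at 4 h, against 62.2, 79.4 and 61.4 CPM at 1 h (-0.59 ± 0.09, edgeR adjusted p = 0.000536 and 0.107 without the block).

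Of 24 genes of ribosome biogenesis, 18 were called higher by small amounts, 0 were called lower and 6 were not called. Their changes ran from -0.10 to 0.59 with a median of 0.20, and the counts depended on the fit (7 higher and 0 lower without the block, at the lowest 4 higher without clone b, and at the highest 1 lower). Rrp9, a factor of the small subunit processome, had 177, 221 and 219 CPM at 4 h, against 131, 138 and 139 CPM at 1 h (0.59 ± 0.09, edgeR adjusted p = 0.000599). Rrn3, the initiation factor of RNA polymerase I, had 685, 859 and 739 CPM at 4 h, against 575, 642 and 578 CPM at 1 h (0.34 ± 0.06, edgeR adjusted p = 0.000978). For neither gene did the times overlap.

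**Figure D4:**
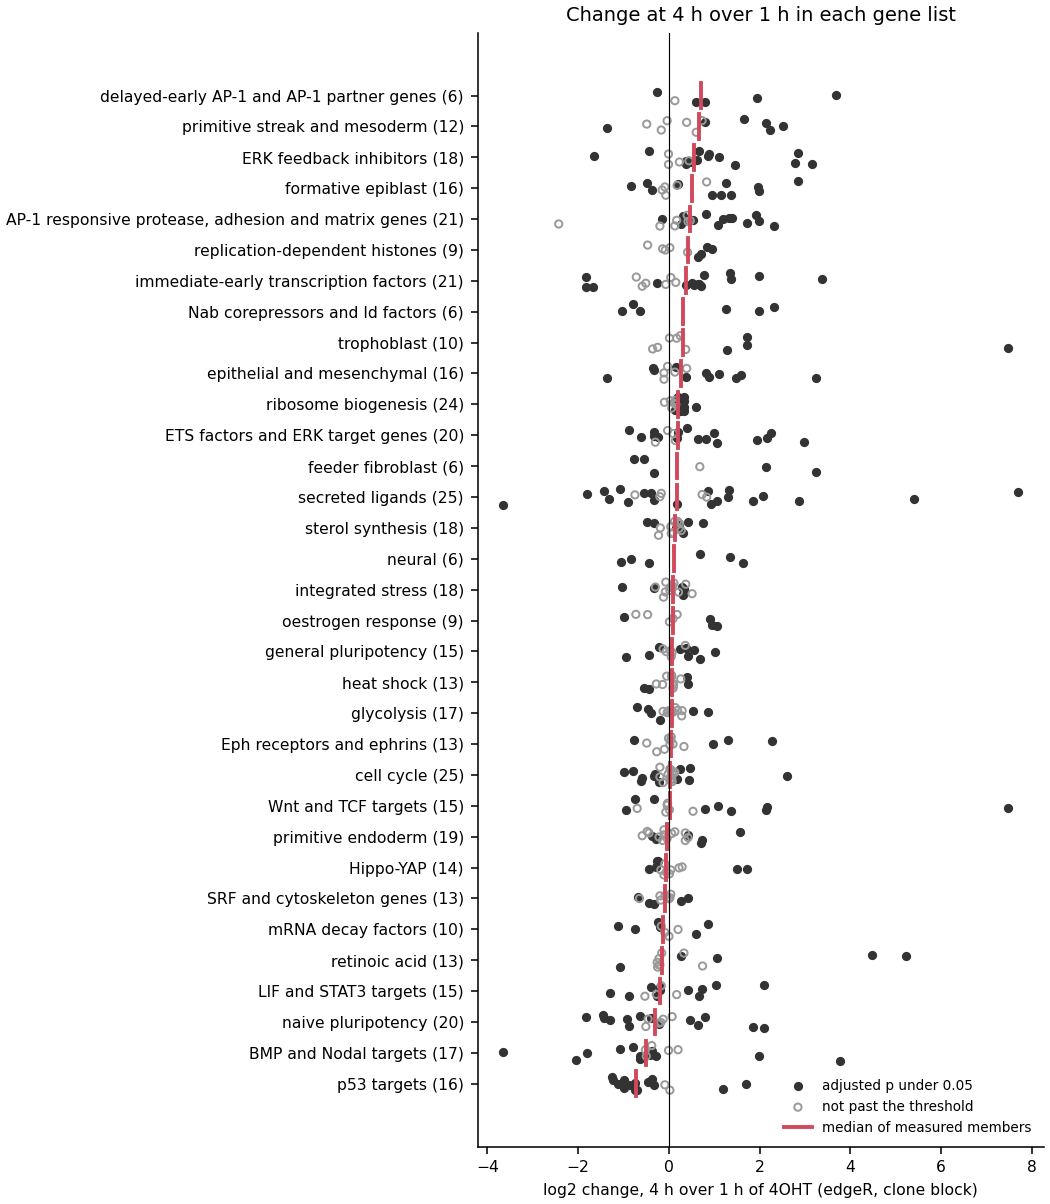
Log2 change of 4 h over 1 h (x axis) of each tested member of 33 gene lists (y axis, with the number tested), sorted by the median (red bar); filled points passed an adjusted p of 0.05 and open ones did not. The list of AP-1 partner genes lies at the top with a median of 0.70 and p53 targets at the bottom with -0.73.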

How the data were processed

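The authors deposited raw counts in 1 table of gene symbols by library. STAR, featureCounts, DESeq and mm10 are named in the submitters' processing notes; versions, annotation and strand setting were not given in the sources used here. Groups and clones were read from the labels. Gene positions and overlaps are from GENCODE M21, and promoters from RefSeq on GRCm38.p6.

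Low genes were dropped with filterByExpr (at least 10 counts, and 15 in total). The rest were TMM-scaled and fitted by edgeR 4.0.16 with limma 3.58.1 in R 4.3.3, as 1 quasi-likelihood model of 12 libraries with terms for group and clone. This left 6 residual degrees of freedom and a biological coefficient of variation of 9.24%. Tests were 2-sided, and p was adjusted over 14185 genes by Benjamini-Hochberg, with 0.05 as the threshold. The approximate SE is the size of the log2 change over the square root of F. Tested genes held 99.9662% of counts. Within a group, libraries differed beyond sampling noise (chi-square of 19.1 to 107 per degree of freedom).

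The clone letter pairs libraries because the titles repeat the same clones at each time. In 18 of 18 same-clone pairs the deviations from group means correlated (r 0.18 to 0.68), and between different clones r was -0.57 to -0.024. Deviations from a group mean cancel over its clones, so positive same-clone values make those between clones negative on average. The latter are thus no separate evidence for pairing. The 18 pairs come from 3 clones and are not independent. The fit without the clone had 8 residual degrees of freedom, and its biological coefficient of variation was 16.3%.

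By rule, the 12 genes with the largest rise and 12 with the largest fall were named, if called, with the same sign in 3 clones and a mean of 1 CPM or more in the 6 libraries (no predicted genes or pseudogenes). Up to 5 called members of each of 34 textbook lists, by smallest p, and a fixed panel were added. The members, lists and tests were chosen with earlier results of these data known. Lists are described by counts and medians, with no test of the list. The alternatives were no clone block, 6 libraries only, DESeq2 1.42.0, limma-voom, other size factors and filters, a 1.5-fold test and leaving out each library or clone. Removal of 4 abundant genes, and list counts under each setting, were added after seeing the data.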

Additional observations from a re-analysis of the deposited data

How the results depend on the processing

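Against 2839 genes higher and 2802 lower, the paired analysis without its replicate block called 1535 and 1240, and shared 2775 of the 5641 calls. The test against a 1.5-fold change called 710 and 300, of which 247 were at least 2-fold lower. Leaving out 1 library or 1 clone gave 1062 to 3535 genes higher and 769 to 3595 lower, with 612 to 1010 at least 2-fold higher and 235 to 686 at least 2-fold lower; the lowest counts were without clone c and the highest came from leaving out clone a or its 4 h library. The other alternatives (6 libraries, DESeq2, limma-voom, other size factors, other filters, and removal of 4 abundant genes) gave 2535 to 2899 higher and 2498 to 3049 lower. Called genes among the 180 named kept their sign under every alternative, and 56 of them were no longer called without the block and 47 without clone c. Changes of uncalled genes turned sign in 3 cases: Sox2 ranged from -0.01 without clone b or its 4 h library to 0.13, Esr1 from -0.15 without the 4 h library of clone b (-0.09 without clone b) to 0.28, and Otx2 from -0.18 to 0.01 without clone a. Jun and Spry4 were called in the fit of 6 libraries, Jun also without clone a, and Gata4 without the 1 h library of clone c. The cause was not tested. At 24213641 or more counts per library, 11712 symbols had too few counts to be tested. Upper quartile factors moved the median of all genes to -0.03.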

Other observations

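Of 16 genes of epithelial or mesenchymal identity 8 were higher, 3 lower and 5 not called (3 higher and 1 lower without the block, and at the lowest 1 lower without clone b). Cdh2, the mesenchymal N-cadherin, had 30.7, 47.1 and 42.4 CPM at 4 h in clones a to c, against 13.7, 11 and 15.9 CPM at 1 h (1.59 ± 0.20, edgeR adjusted p = 0.000171). Epcam, an epithelial adhesion molecule, had 140.1, 353 and 156 CPM at 4 h, against 91.3, 138 and 63.9 CPM at 1 h (1.10 ± 0.14, edgeR adjusted p = 0.000161 and 0.0844 without the block). Among Eph receptors and ephrins, 3 of 13 members (23.1%) were higher and 1 (7.69%) lower, beside 20.0% and 19.8% of all genes tested. The counts were 1 higher and 1 lower without the block, and at the highest 2 lower. Efna5, a membrane-anchored ligand, had 9.45, 30 and 22.6 CPM at 4 h, against 3.27, 4.24 and 4.75 CPM at 1 h (2.27 ± 0.27, edgeR adjusted p = 0.000115). Epha4, a receptor, had 68.5, 67.8 and 96.2 CPM at 4 h, against 104, 134 and 156 CPM at 1 h (-0.76 ± 0.07, edgeR adjusted p = 3.87e-05). Of 14 tested Hippo-YAP genes 2 (14.3%) were higher and 4 (28.6%) lower. The counts were 2 higher and 2 lower without the block, and at the lowest 0 lower without clone c. Amotl1, an angiomotin that binds YAP, had 28.2, 49.7 and 48.9 CPM at 4 h, against 16.9, 11.9 and 16.4 CPM at 1 h (1.5 ± 0.21, edgeR adjusted p = 0.000329).

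Sterol synthesis had 5 of 18 tested members (27.8%) higher and 2 (11.1%) lower, beside 20.0% and 19.8% of all genes tested. The counts were 0 higher and 0 lower without the block. They were at the lowest 0 higher without clone c and 0 lower without 4 h of clone c, and at the highest 8 higher. Glycolysis had 2 of 17 (11.8%) higher and 4 (23.5%) lower. The counts were 0 higher and 2 lower without the block, at the lowest 1 lower without clone c, and at the highest 7 higher. Hk1, a hexokinase, had 74.9, 56.8 and 76.4 CPM at 4 h, against 111, 102 and 126 CPM at 1 h (-0.71 ± 0.08, edgeR adjusted p = 5.98e-05). Gapdh (-0.47) and Pgk1 (-0.4) were called lower too. Pfkp (0.54, edgeR adjusted p = 8.08e-05) and Slc2a1 (0.86, edgeR adjusted p = 0.000704) were called higher. The integrated stress list had 5 of 18 (27.8%) higher and 2 (11.1%) lower. The counts were 3 higher and 1 lower without the block, and at the lowest 1 higher without clone c and 1 lower without 4 h of clone b. Ddit4, an inhibitor of mTORC1, had 4.3, 3.77 and 3.56 CPM at 4 h, against 7.14, 8.59 and 8.24 CPM at 1 h (-1.03 ± 0.18, edgeR adjusted p = 0.00113). Slc3a2 (0.32, edgeR adjusted p = 0.000332), Psat1 (0.28), Mthfd2 (0.34) and Phgdh (0.33) of this list were called higher. Heat shock genes had 2 of 13 (15.4%) higher and 2 (15.4%) lower. The counts were 1 higher and 1 lower without the block, and at the lowest 0 higher without 4 h of clone b. Hspa5, a chaperone of the endoplasmic reticulum, had 632, 597 and 549 CPM at 4 h, against 758, 816 and 816 CPM at 1 h (-0.43 ± 0.06, edgeR adjusted p = 0.000327). Among genes known to respond to oestrogen, which bear on a tamoxifen ligand, 3 of 9 tested members were higher and 1 lower (2 higher and 0 lower without the block, at the lowest 1 higher without clone c and 0 lower without clone c, and at the highest 2 lower). Its member Xbp1, a factor of the unfolded protein response, had 80.7, 77.1 and 102 CPM at 4 h, against 47.4, 32.8 and 45.5 CPM at 1 h (1.06 ± 0.13, edgeR adjusted p = 0.000119). Of 9 tested replication-dependent histone genes 4 were higher and 0 lower (2 higher and 0 lower without the block, at the lowest 2 higher without 4 h of clone b, and at the highest 1 lower). Among them Hist1h2bc had 40.1, 43.6 and 40.7 CPM at 4 h, against 22.4, 20.5 and 21.9 CPM at 1 h (0.94 ± 0.14, edgeR adjusted p = 0.00046). Histone genes have near-identical copies whose reads the counting could have split.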
